A study of Mus musculus with 4 samples.

Results

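Airway club cell secretory genes were followed through 4 droplet single-cell RNA libraries of sorted cells from MMTV-HER2/Neu mice. The set holds 5 of the 27998 genes in the count tables: Scgb1a1, Scgb3a1, Scgb3a2, Cyp2f2 and Cbr2. They were chosen by name, as genes known from airway epithelium, and all 5 were found in the tables. All 4 groups carry a neu (HER2) transgene on the FvB background, expressed in mammary epithelium from the promoter of the mouse mammary tumor virus (MMTV). The late lung library came from lungs of mice over 20 weeks old that bore primary tumors, and the early lung library from lungs of mice aged 14 to 18 weeks with no palpable tumor. The primary tumor library came from breast tumors of the late stage, and the early lesion library from mammary glands of the early stage. Cells were sorted as CD45- HER2+, and the labels call them breast cancer cells in every group. Each group is 1 library, and the sources used here do not say how many mice went into it, so no test between groups and no spread between replicates could be given.

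Club cells line the conducting airways of the lung. They secrete proteins of the secretoglobin family into the airway fluid, take up and convert inhaled chemicals, and can renew the airway epithelium after injury. Scgb1a1, also called uteroglobin or CC10, is their classical secreted product. Scgb3a1 and Scgb3a2 encode further secretoglobins, and the Scgb3a1 product is best known from the larger airways. Cyp2f2 encodes a cytochrome P450 enzyme that activates naphthalene in mouse club cells. Cbr2 encodes a carbonyl reductase of mouse lung.

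The libraries held 1070236 UMIs (tags that each mark 1 captured RNA molecule) in the late lung, 743765 in the early lung, 3403140 in the primary tumor and 6366768 in the early lesion. A barcode counted as a cell when it had 500 UMIs or more, 250 detected genes or more and a mitochondrial share of 20% or less. This gave 210 late lung cells, 185 early lung cells, 434 primary tumor cells and 1318 early lesion cells, with medians of 811, 772, 1657.5 and 2360 UMIs. The labels' lung cells are shallow, so a gene seen in few of them may be missed rather than absent. No barcode was called a cell in more than 1 library. Some RNA did sit on barcodes that 2 libraries share: the 9 early lung cells richest in Scgb1a1 have barcodes that carried 404 of the 673 Scgb1a1 UMIs of the early lesion library. Those barcodes had at most 123 UMIs there, so none was a lesion cell, and the values of lesion cells do not include them.

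The genes lie on 4 chromosomes of mm10, by the GENCODE M21 annotation, and all are protein coding. Scgb1a1 (ENSMUSG00000024653) spans chr19:9083636-9087958 on the minus strand. Scgb3a1 (ENSMUSG00000064057) spans chr11:49663610-49665118 on the plus strand, and Cbr2 (ENSMUSG00000025150) chr11:120729489-120732114 on the minus strand. Cyp2f2 (ENSMUSG00000052974) spans chr7:27119909-27133660 on the plus strand.

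Scgb3a1, Cyp2f2 and Cbr2 were each found in cells rich in Scgb1a1 in both lungs, Scgb3a1 in few of them. The promoter windows of these 3 of the 5 genes are shown here, without those of Scgb1a1 and Scgb3a2. Each runs from 250 bases before to 50 bases after the RefSeq start in GRCm38.p6, on the gene's strand: chr11:49663345-49663644 for Scgb3a1, chr7:27119705-27120004 for Cyp2f2 and chr11:120731972-120732271 for Cbr2. Capitals mark matches to CAAGTG, the core letters bound by NKX2-1, a transcription factor of lung epithelium, on either strand.
Scgb3a1: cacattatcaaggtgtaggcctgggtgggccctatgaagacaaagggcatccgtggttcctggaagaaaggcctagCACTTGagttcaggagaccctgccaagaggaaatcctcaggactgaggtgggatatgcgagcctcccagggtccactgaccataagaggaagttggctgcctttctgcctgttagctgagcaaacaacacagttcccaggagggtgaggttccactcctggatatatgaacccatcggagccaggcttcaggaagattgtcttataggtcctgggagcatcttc
Cyp2f2: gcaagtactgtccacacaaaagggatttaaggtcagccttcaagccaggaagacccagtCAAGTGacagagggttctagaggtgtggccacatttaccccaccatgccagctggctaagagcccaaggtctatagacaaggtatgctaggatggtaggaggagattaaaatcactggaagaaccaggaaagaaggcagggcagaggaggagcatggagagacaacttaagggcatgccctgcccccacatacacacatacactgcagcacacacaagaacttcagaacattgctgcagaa
Cbr2: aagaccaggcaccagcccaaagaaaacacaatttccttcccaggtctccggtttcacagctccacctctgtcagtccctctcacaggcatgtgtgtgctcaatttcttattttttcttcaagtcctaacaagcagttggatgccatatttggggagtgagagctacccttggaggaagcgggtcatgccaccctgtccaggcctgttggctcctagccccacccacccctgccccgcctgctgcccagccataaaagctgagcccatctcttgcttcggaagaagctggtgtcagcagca
The search also covered TGTTTAC, letters of forkhead factors, and TTGCNNAA, letters of C/EBP factors, on both strands. Scgb3a1 held 1 CAAGTG match, 174 bases before its start, on the minus strand of the gene. Cyp2f2 held 1 match, 191 bases before its start, and Cbr2 held none. None of the 3 windows held the forkhead or the C/EBP letters, and no matches overlapped. Of 32851 windows of the same length, 13.6% held CAAGTG, 3.65% TGTTTAC and 10.8% TTGCNNAA. A match describes letters in a window and says nothing of binding.

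Scgb1a1 was the dominant RNA of the set in both lungs. Lung cells held 33957 Scgb1a1 UMIs in the late library, 8.24% of all their UMIs, and 22815 in the early library, 11.2%. Free RNA, the sum of barcodes with 1 to 50 UMIs, held 24059 Scgb1a1 UMIs in the late lung, 7.55% of its total, and 10725 in the early lung, 4.59%. At least 1 Scgb1a1 UMI was found in 95.2% of late lung cells (exact 95% interval 91.4 to 97.7%) and in 94.6% of early lung cells (90.3 to 97.4%). After each cell was thinned to 500 UMIs, the shares were 91.0% and 87.0% of the same late and early cells. Fibroblast-like cells, a cluster led by Dcn, Serpinf1, Fbln1, Mfap4 and Mgp that should lack the gene, carried it as often: 6 of 6 late cells with a median of 520 UMIs and 11 of 12 early cells with a median of 724 UMIs. Presence of a Scgb1a1 UMI in a lung cell was therefore read as background here, and the amount per cell was used instead.

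The other 4 genes were found in fewer cells. Scgb3a1 had 330 UMIs in late lung cells, 801 CPM (UMIs scaled to the total of the sum), and 82 UMIs in early lung cells, 403 CPM. Scgb3a2 had 795 UMIs (1929 CPM) in late and 379 UMIs (1861 CPM) in early lung cells. Cyp2f2 had 30 UMIs (72.8 CPM) in late and 45 UMIs (221 CPM) in early lung cells. Cbr2 had 298 UMIs (723 CPM) in late and 289 UMIs (1419 CPM) in early lung cells. Cells with at least 1 UMI made up 5.24% of late and 2.16% of early lung cells for Scgb3a1, 19.0% and 13.5% for Scgb3a2, 5.71% and 6.49% for Cyp2f2, and 17.6% and 10.8% for Cbr2. Thinned to 500 UMIs, the late and early shares were 1.90% and 2.16% for Scgb3a1, 10.5% and 7.57% for Scgb3a2, 1.90% and 3.78% for Cyp2f2, and 10.5% and 7.57% for Cbr2. Fibroblast-like cells had a Scgb3a1 UMI in 1 of 6 late and 1 of 12 early cells, a Scgb3a2 UMI in 2 of 6 late and 1 of 12 early cells, and no Cyp2f2 or Cbr2 UMI. The 4 shares in each lung have exact intervals that overlap between late and early, and their order for Scgb3a1 turned with thinning.

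A small number of cells carried nearly all of the Scgb1a1. A cell was called above free RNA for a gene when its UMIs were at least 2 times what its total and the free RNA share predict, and their exact Poisson interval, at an error rate of 0.001, lay above that prediction. For Scgb1a1, 15 of 210 late lung cells (7.14%, exact 95% interval 4.05 to 11.5%) and 9 of 185 early lung cells (4.86%, 2.25 to 9.03%) met this. These cells held 95.3% of the Scgb1a1 UMIs of late lung cells and 96.4% of those of early lung cells. Within such a cell, Scgb1a1 took 49.5 to 79.5% of all UMIs in the late lung (median 67.8%) and 38.4 to 78.5% in the early lung (median 70.4%). In the remaining cells the median was 0.441% in the late and 0.431% in the early lung. The highest values among those cells were 1.49% in the late lung and 3.11% in the early lung, and the second highest were 1.48% and 1.10%. No cell of either lung lay between the 2 sets, so moving the limit from 2-fold to 1.5-fold or 3-fold gave the same 15 and 9 cells.

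**Figure D1:**
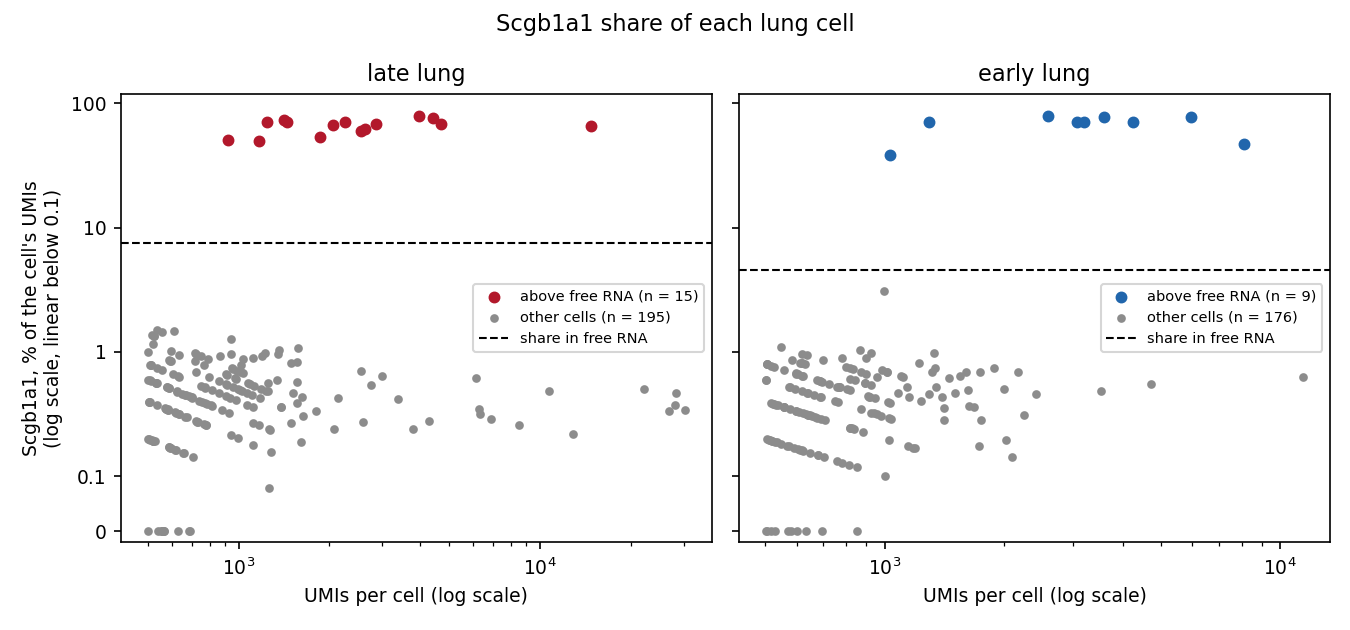
Scgb1a1 as a percentage of each cell's UMIs (vertical, log scale, linear below 0.1) against UMIs per cell (horizontal, log scale) in the late lung (left) and the early lung (right). Colored points are the 15 and 9 cells above free RNA, grey points the other 195 and 176 cells, and the dashed line is the share in free RNA. The colored cells lie at 38.4% or more and all other cells at 3.11% or less.

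The remaining cells held less Scgb1a1 than their totals and the free RNA share predict. The 195 other late lung cells carried 1584 Scgb1a1 UMIs, against 27457 predicted, a ratio of 0.0577. The 176 other early lung cells carried 813, against 7825 predicted, a ratio of 0.104. Free RNA in the lungs thus had a share of Scgb1a1 well above that of these cells and well below that of the 15 and 9 rich cells. The same held for the other 4 genes, whose observed counts in cells not above free RNA were 0.0862 to 0.187 of the prediction in the late lung and 0.114 to 0.448 in the early lung. For each gene, the cells above free RNA were taken out by its own counts. That by itself lowers these ratios, so they are a description.

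The Scgb1a1-rich cells were deeper and had a lower mitochondrial share than the others. Their median depth was 2251 UMIs in the late lung and 3197 in the early lung, against 771 and 758.5 UMIs in the other late and early cells. Without the 5 genes the depths were close, with medians of 765 late and 874 early UMIs in the rich cells, against 768 and 756 in the other late and early cells. The median mitochondrial share was 0.276% in the late and 0.436% in the early rich cells, against 2.93% and 3.68% in the other late and early cells. These shares are of all UMIs. Only 14508 of 48240 late and 10344 of 33077 early UMIs of rich cells lay outside the 5 genes, which by itself lowers their share. Detected genes numbered 255 to 1709 in the late and 258 to 1619 in the early rich cells, so the lowest were close to the 250-gene minimum. With no gene minimum, an alternative chosen after seeing the data, the counts were 19 late and 10 early cells.

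The other secretory genes were concentrated in these same cells. Scgb3a2 was above free RNA in 10 late and 8 early cells, and all of them were Scgb1a1-rich. Scgb3a1 was above it in 1 late and 2 early cells, again all Scgb1a1-rich. Among 3 late and 4 early cells above free RNA for Cyp2f2, 2 late and 4 early were Scgb1a1-rich. Of 14 late and 7 early cells above it for Cbr2, 12 late and 4 early were Scgb1a1-rich. The rule used each gene's own counts, so a gene with few UMIs can pass it in few cells.

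Cbr2 was found in every Scgb1a1-rich cell, at 5 to 44 UMIs (median 13) in the 15 late cells and at 4 to 128 UMIs (median 15) in the 9 early cells. Scgb3a2 ranged more widely, at 0 to 366 UMIs (median 21) in the late cells and 1 to 132 UMIs (median 18) in the early cells. This gene (ENSMUSG00000038791) lies at chr18:43764289-43767399 on the plus strand. It was at 0 in 2 of the 15 late cells and in none of the 9 early cells. Cyp2f2 had at least 1 UMI in 11 of 15 late cells, with a median of 1 and a highest count of 7. It had at least 1 UMI in 9 of 9 early cells, with a median of 3 and a highest count of 14. The counts of both groups overlap for these 3 genes.

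Scgb3a1 was a gene of very few cells. In the late lung, 1 cell held 318 of the 330 Scgb3a1 UMIs, and no other late cell held more than 2. That cell was the deepest rich cell, with 14772 UMIs, of which 9661 were Scgb1a1 and 366 Scgb3a2. It also held 33 UMIs of Reg3g, a secreted antibacterial lectin, and 3 of Bpifa1, a secreted airway surface protein. Early, 2 lung cells held 61 and 19 of the 82 Scgb3a1 UMIs. The first had 8104 UMIs and was the early cell with the most Scgb3a2 (132), Cyp2f2 (14) and Cbr2 (128). The second had 1030 UMIs and the lowest Scgb1a1 share of the early rich cells, 38.4%, with 36 Scgb3a2 UMIs. All 3 cells were therefore also high in Scgb3a2, while 12 of 15 late and 7 of 9 early rich cells had no Scgb3a1 UMI.

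**Figure D2:**
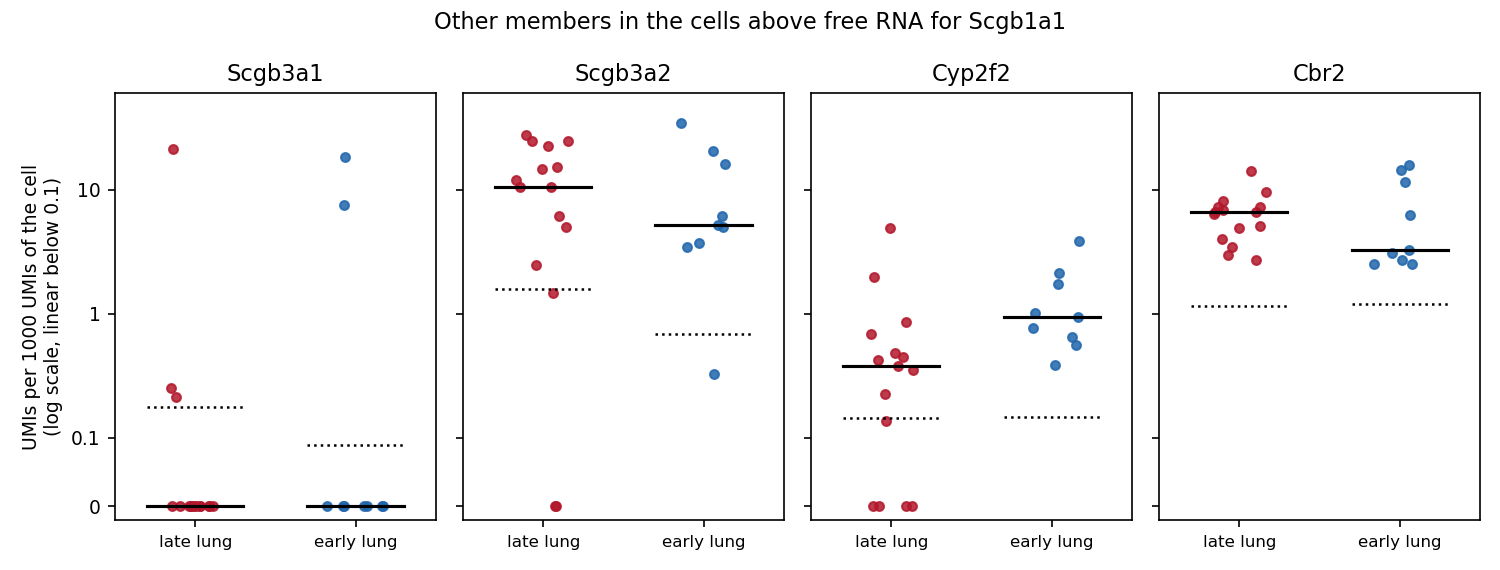
UMIs of Scgb3a1, Scgb3a2, Cyp2f2 and Cbr2 per 1000 UMIs of the cell (vertical, log scale, linear below 0.1) in the 15 late lung (left of each panel) and 9 early lung cells (right) above free RNA for Scgb1a1. Points are cells, solid lines medians, and dotted lines the free RNA level. Cbr2 lies above the dotted line in every cell, and Scgb3a1 stands high in 1 late and 2 early cells.

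A few cells carried an enzyme gene without being Scgb1a1-rich. In the late lung, a cell of 609 UMIs held 7 Cyp2f2 and 8 Cbr2 UMIs beside 9 Scgb1a1 UMIs, and a cell of 1177 UMIs held 12 Cbr2 and 5 Scgb1a1 UMIs. In the early lung, 3 cells of 620, 693 and 1000 UMIs held 6, 15 and 12 Cbr2 UMIs beside 4, 2 and 1 Scgb1a1 UMIs. Their Scgb1a1 shares were between 0.10% and 1.48%, within the range of the other cells. In these 5 cells Cbr2 was above free RNA without a high Scgb1a1 share. Foxj1, a marker of ciliated cells, had 1 UMI in each of the late cells of this set and 0 in the 3 early cells.

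Several genes that club cells are known for were higher in the Scgb1a1-rich cells than in the other lung cells. The comparison used summed UMIs with the 5 genes left out of the totals. A gene was called where the ratio of CPM, after adding 0.5 counts, was at least 2-fold and its exact 95% interval excluded 1, among genes with at least 20 UMIs. The intervals cover counting error only, and the spread between cells and between mice is not in them. All 4 other members were called higher in both lungs, at log2 ratios of 9.57 late and 9.05 early for Scgb3a1, 9.20 and 8.32 for Scgb3a2, 6.29 and 7.64 for Cyp2f2, and 7.12 and 6.62 for Cbr2. Cyp2f2 and Scgb3a1 in both lungs, and Scgb3a2 in the early lung, reached the 20 UMIs only through the rich cells, so that their calls follow in part from the filter. In the late lung, 223 of 3371 genes were called higher, 6.62%, and 171 lower, 5.07%. In the early lung, 154 of 1654 genes were called higher, 9.31%, and 94 lower, 5.68%. The cells were chosen by Scgb1a1, so its own difference is a description only.

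Ranked by the lower interval bound in both lungs, the leading gene was Hp, which encodes haptoglobin, a secreted hemoglobin-binding protein. The ranking covered 1828 genes with at least 50 UMIs over all lung cells, rich cells included. Hp, Cxcl15 and Sftpb reached 50 UMIs only through the rich cells, so their ranks follow in part from the filter. Hp had 111 UMIs in 15 rich late cells and 8 in 195 other late cells, a log2 ratio of 8.35 (7.41 to 9.68). The early lung had 44 Hp UMIs in 9 rich cells and 3 in 176 other cells, a log2 ratio of 7.70 (6.27 to 10.24). Wfdc2, a secreted protease inhibitor of airway epithelium, followed at 6.66 late and 5.25 early. Cxcl15, a chemokine of mouse lung epithelium, was at 7.21 late and 5.996 early. Sftpb and Sftpa1, surfactant proteins that club cells share with alveolar type 2 cells, were at 6.47 and 3.88 in the late lung and at 5.49 and 5.69 in the early lung. Mgst1 and Gsta3, glutathione transferases, were at 5.08 and 4.22 in the late lung and at 4.86 and 3.41 in the early lung. Selenbp1, a selenium-binding protein, was at 3.03 late and 3.71 early. The 10 ended with Zfp260 (3.08 late, 3.56 early), a zinc finger protein, and Iqcb1 (3.19 late, 3.50 early), a protein of the cilium base.

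Lists of club cell genes were counted over genes with at least 20 UMIs in the other cells alone, a filter chosen after seeing the data, since a gene admitted by its UMIs in the rich cells would have to be high there. With this filter 6.09% of 3283 genes were called higher and 5.21% lower in the late lung, and 8.40% of 1571 higher and 5.98% lower in the early lung, with medians of -0.41 and -0.26. Among 20 other secreted products, 3 late genes (Lyz2, Retnla and Lcn2) and 1 early gene (Lyz2) could be counted and none was called. Hp, Cxcl15, Reg3g and Scgb1c1 in the late lung, and Hp and Cxcl15 in the early lung, passed 20 UMIs only through the rich cells, and their values are given as a description. Late rich cells held 22 Scgb1c1 UMIs, against 4 in the other late cells. The 33 Reg3g UMIs in late rich cells came from the single Scgb3a1-rich cell. Of 30 biotransformation genes, 8 of 14 were higher in the late lung and 6 of 12 in the early lung, and none was lower in either. They included Gstm1 (2.25 late, 1.66 early), a glutathione transferase, Aldh1a1 (2.85 late, 1.77 early), a retinal dehydrogenase, and Cyb5a (2.47 late, 1.44 early), an electron donor to cytochrome P450 enzymes. Sult1d1, a sulfotransferase, had 26 UMIs in early rich cells and 19 in late rich cells, and passed 20 UMIs in the early lung only through the rich cells. The list medians were 2.25 late and 1.16 early.

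Structure and transport genes were higher for 4 of 7 in the late lung (Wfdc2, Krt18, Krt19, Epcam) and for 2 of 6 in the early lung (Wfdc2, Krt18). The late Epcam call rests on 4 UMIs in 3 of 15 rich cells, and the 9 early rich cells held 0 Epcam UMIs. For Wfdc2, 71 of the 151 UMIs in late rich cells lay in 1 cell. Krt18, a keratin of simple epithelia, was at 2.28 late and 2.80 early. The list medians were 2.04 late and 0.70 early. Transcription factors of the airway were scarce at this depth, and none of 6 late or 4 early genes compared was called higher. Nfib, a factor of lung maturation, was lower in the late lung, with 0 UMIs in rich cells and 182 in the other cells. Nkx2-1 had 4 UMIs in the late and 0 in the early rich cells. The list medians were 0.67 late and 0.17 early.

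Several markers of other cell types were lower in the rich cells, and many others were too scarce for a call. Over all genes with at least 20 UMIs in the other cells, 5.21% were called lower in the late and 5.98% in the early lung. Endothelial markers were lower for 10 of 15 genes in the late lung and 5 of 13 in the early lung, with medians of -2.62 and -1.88. Cldn5, a tight junction protein of endothelium, had 1 UMI in rich late cells and 662 in other late cells, and 1 in rich early cells and 157 in other early cells. Of 13 alveolar type 1 markers compared in each lung, 5 were lower and 1 (Clic3) higher in the late lung, and 9 were lower in the early lung. Ager, a receptor of alveolar type 1 cells, was at -1.23 in the late and -3.01 in the early lung. Fibroblast markers were lower for 2 of 8 genes in the late and 4 of 7 in the early lung. Pericyte and smooth muscle markers were lower for 1 of 10 late and 2 of 8 early genes, the late count being near the share over all genes. Erythroid markers were lower for 4 of 4 genes in the late lung, with 13 UMIs in rich and 6549 in other cells. In the early lung 3 had at least 20 UMIs in rich and other cells together. Of these, Hbb-bs, a hemoglobin gene, was higher, with 7 UMIs in rich and 18 in other cells, and passed 20 UMIs only with the rich cells. The 6 goblet, 5 airway basal, 6 neuroendocrine, 5 mesothelial, 5 lymphatic endothelial and 10 immune markers had 0 UMIs in the rich cells of both lungs. The other cells also had few: 0 late and 0 early UMIs for goblet, 1 and 0 for airway basal, 5 and 1 for neuroendocrine, 1 and 0 for mesothelial, 75 and 13 for lymphatic endothelial and 37 and 11 for immune markers. None of these lists gave a call, so no difference was detectable at this depth.

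Alveolar type 2 and ciliated markers were mixed. Of 14 alveolar type 2 markers, 3 had at least 20 UMIs in the other late cells and 2 of them, Sftpc and Sftpa1, were higher in the rich cells. In the early lung 1 marker had as many in the other cells and it was not called, and Sftpa1 and Sftpb passed 20 UMIs there only through the rich cells. Sftpc, the surfactant gene that defines alveolar type 2 cells, had 225 UMIs in the late rich cells. Of these, 124 and 81 lay in 2 of the 15 cells, of 1164 and 2548 UMIs, and the other 13 held 8 or fewer each. In the early rich cells Sftpc had 1 UMI, against 89 in the other early cells. Among ciliated markers, Sec14l3 was higher in the late lung at 1.47, and Tppp3 was lower in the late lung at -1.88 and in the early lung at -2.71. Foxj1, the master regulator of motile cilia, was at 0 in all Scgb1a1-rich cells.

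The sort was for HER2, and its genes were too scarce in the rich cells to be read. Erbb2 had 0 UMIs among the 14508 UMIs of late and the 10344 UMIs of early rich cells outside the 5 genes. The exact interval for a count of 0 there reaches 254 CPM in the late and 357 CPM in the early rich cells. These limits lie above the 47.6 CPM of primary tumor cells and the 7.64 CPM of early lesion cells. In the other lung cells Erbb2 had 3 UMIs in each library. Ptprc, the CD45 gene, had 0 UMIs in all lung cells. Mammary luminal markers (11 genes) had 8 UMIs in the late and 9 in the early rich cells, with 6 of 11 at 0 in each. The other late cells held 578 and the other early cells 36. With the 5 genes left out of the totals, late rich cells were at 551 CPM and other late cells at 1596 CPM. Early rich cells were at 870 CPM and other early cells at 212 CPM. The direction thus differed between the lungs, on few UMIs in the rich cells. The tables do not separate the neu transgene from the mouse gene.

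Clustering the lung cells of both libraries without the 5 genes put the Scgb1a1-rich cells together. All 15 late and 9 early cells fell in cluster 4 of 8, which held 27 late and 14 early cells and had Cxcl15, Lcn2, Sult1d1 and C1qb, a complement gene of macrophages, among its leading genes. It was left without a cell type name, since only 2 of its 10 leading genes, Cldn10 and Lypd2, were airway secretory markers. Scgb1a1 took 37.6% of the UMIs of its late cells and 59.8% of those of its early cells. In the 7 other clusters it took 0.378 to 0.503% in the late lung and 0.431 to 0.661% in the early lung. The fibroblast-like cluster had 0.493% late and 0.486% early. In those 7 clusters Scgb1a1 was at 0.0501 to 0.144 of what free RNA predicts, so it could not be told from background there. At resolution 0.5, 14 of the late cells and all 9 early cells stayed in 1 cluster and 1 late cell fell in another.

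**Figure D3:**
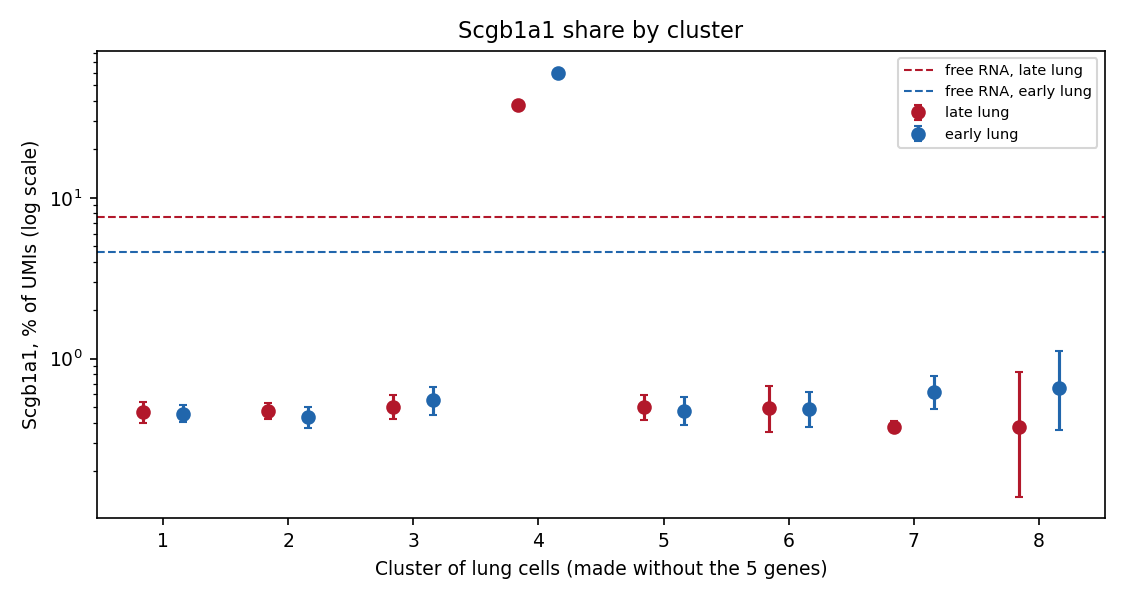
Scgb1a1 as a percentage of UMIs (vertical, log scale) in 8 clusters of lung cells made without the 5 genes (horizontal), late lung left of early lung in each. Bars are exact 95% intervals for counting error, and dashed lines are the free RNA shares. Cluster 4 lies at 37.6% late and 59.8% early, and the other clusters lie between 0.378% and 0.661%.

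Scgb1a1 changed with barcode depth in both lungs. In the late lung its share was 7.79% on barcodes with 1 UMI, 9.33% at 11 to 20 UMIs, 5.14% at 21 to 50, 3.17% at 51 to 100 and 0.990% above 250 and below 500 UMIs. The early lung had 4.53%, 5.53%, 3.94%, 3.15% and 1.08% in the same bins. At 500 UMIs or more the share was 8.64% in the late and 10.9% in the early lung. Leaving out barcodes on which Scgb1a1 took at least 25% brought this last value to 0.432% in the late and 0.478% in the early lung. Below the cell minimum the share was thus highest at 11 to 20 UMIs and fell in each deeper bin, and at 500 UMIs or more the rich barcodes set the value. Barcodes with at least 25% Scgb1a1 (and at least 5 UMIs of it) also held 55.3% of the late and 65.0% of the early Scgb1a1 UMIs at 11 to 20 UMIs. Without them the share in that bin was 4.58% late and 2.05% early. At 21 to 50 UMIs they held 53.2% late and 56.2% early. Such barcodes are part of the free RNA used here. Lung values that rest on free RNA depend on which barcodes stand for it.

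**Figure D4:**
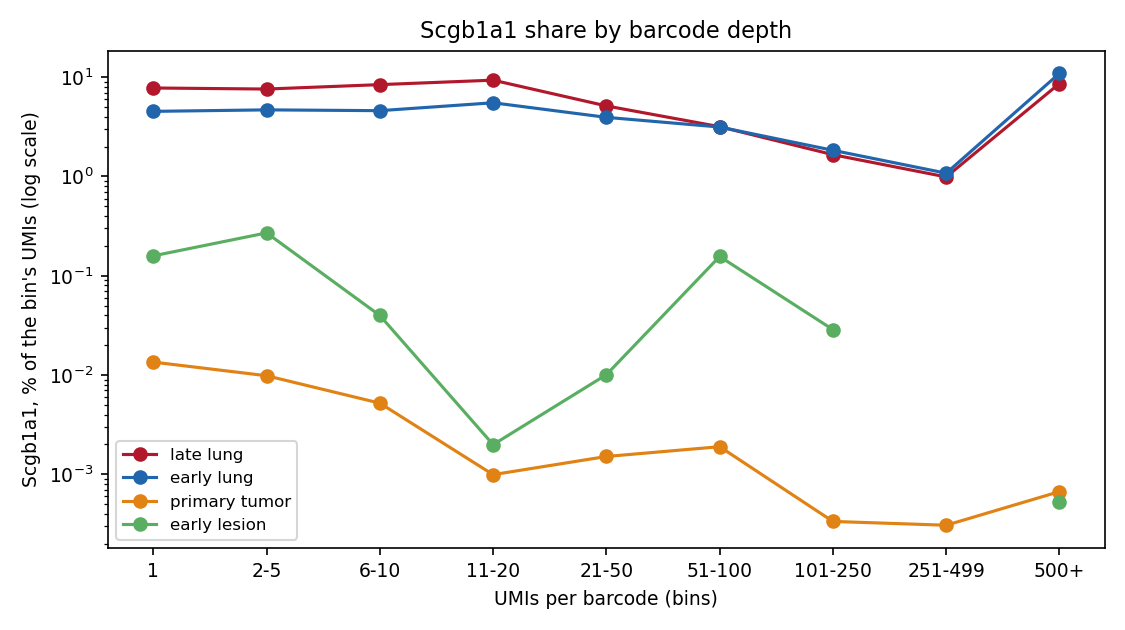
Scgb1a1 as a percentage of UMIs (vertical, log scale) over barcodes grouped by their UMIs (horizontal, bins) in the 4 libraries; bins with no Scgb1a1 UMI are left blank. Both lungs fall to 0.990% late and 1.08% early above 250 and below 500 UMIs and stand at 8.64% and 10.9% at 500 or more, while both primary-site libraries stay at 0.270% or less.

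The proportions between the genes differed between cells and free RNA. Per 1000 Scgb1a1 UMIs, Cbr2 had 7.82 (exact 95% interval 6.88 to 8.84) in late rich cells and 15.3 (13.7 to 16.9) in late free RNA. Early lung values were 11.3 (9.91 to 12.8) in rich cells and 26.0 (23.0 to 29.3) in free RNA. Cyp2f2 had 0.710 (0.450 to 1.07) in late rich cells and 1.91 (1.40 to 2.55) in late free RNA, and 1.91 (1.37 to 2.58) in early rich cells and 3.17 (2.19 to 4.43) in early free RNA. The rich cells were chosen for high Scgb1a1, which by itself lowers a ratio to Scgb1a1 in them, so these differences are a description. Cbr2 was at 28.4 in the other late cells and 50.4 in the other early cells, which were chosen for low Scgb1a1. On barcodes with more than 50 and fewer than 500 UMIs, which were not chosen by Scgb1a1, Cbr2 was at 45.0 in the late and 48.9 in the early lung. Scgb3a2 was close, at 23.6 in rich cells and 21.03 in free RNA of the late lung, and at 16.4 in rich cells and 14.9 in free RNA of the early lung, with overlapping intervals. Scgb3a1 was at 9.88 in rich cells and 2.33 in free RNA of the late lung, which rests on the cell with 318 UMIs, and at 3.64 and 1.96 in early rich cells and early free RNA.

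Summed over all cells, the members stood at different heights against free RNA in each lung. In the late lung Scgb3a1 was called higher in cells than in free RNA, at a log2 ratio of 2.18, where 9.96% of 5108 genes were called higher and 5.97% lower. Without the 8 late cells over 10000 UMIs this ratio was -2.31. Scgb1a1 was at 0.13, Scgb3a2 at 0.28, Cbr2 at -0.67 and Cyp2f2 at -0.98, none of them called. These late values depend on the free RNA range: against barcodes with 51 to 100 UMIs, Scgb1a1 was at 1.38 (1.32 to 1.44) and Scgb3a2 at 1.62 (1.201 to 2.09), both past the 2-fold limit. In the early lung Scgb1a1 (1.29), Scgb3a1 (2.14) and Scgb3a2 (1.44) were called higher, where 6.83% of 3293 genes were called higher and 6.74% lower. Cyp2f2 was at 0.60 and Cbr2 at 0.25 there, not called.

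Between stages, Cyp2f2 was lower in the late lung and the other 4 genes did not reach a call. Summed over cells, Cyp2f2 had a log2 ratio of late over early lung of -1.59 (exact 95% interval -2.32 to -0.90). Over all genes, 396 of 4552 were called higher, 8.70%, and 157 lower, 3.45%, with a median of 0.05. Without cells over 10000 UMIs the Cyp2f2 ratio was -0.98, just under the 2-fold limit, so its call rests on that choice. Cbr2 was at -0.97 (-1.21 to -0.73), close under the limit. It passed the limit at -1.02 with the 5 genes left out of the totals, at -1.02 with a mitochondrial maximum of 10% and at -1.45 with a minimum of 1000 UMIs, and was at -0.37 without the cell with the most Cbr2 in each library. Scgb1a1 was at -0.44 (-0.47 to -0.42), and Scgb3a2 at 0.05 (-0.13 to 0.23). Scgb3a1 was at 0.99 (0.64 to 1.36), and at -1.80 without its highest cell in each library.

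Within the Scgb1a1-rich cells alone, the share of Scgb1a1 was alike at both stages. It was 67.1% of the UMIs of the late and 66.5% of those of the early rich cells, a log2 ratio of 0.01 (-0.01 to 0.04). The ratio was 0.085 (0.056 to 0.113) without the cell with the most Scgb1a1 in each library. The cells were chosen by Scgb1a1, so these values are a description only. Cyp2f2 remained lower in the late cells, with 23 UMIs, against 42 UMIs in the early cells, a log2 ratio of -1.40 (-2.21 to -0.65). Without the cell with the most Cyp2f2 in each library it was -1.70. Among 242 genes, 4.96% were called higher and 5.37% lower. Cbr2 was at -0.52 (-0.77 to -0.26) and Scgb3a2 at 0.53 (0.35 to 0.72), neither called, and Cbr2 was at 0.38 without its highest cell in each library. Scgb3a1 was called higher at 1.45 (1.10 to 1.83), and it was -3.39 without its highest cell in each library. That call therefore rests on 1 late lung cell.

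Free RNA gave another order. There Scgb3a2 was called higher in the late lung, at 506 UMIs, against 160 UMIs in the early lung, a log2 ratio of 1.21 (0.95 to 1.48). Of 3997 genes, 6.88% were called higher and 4.28% lower. Taken from barcodes with 51 to 100 UMIs instead, the Scgb3a2 ratio was -0.02. Scgb1a1 was at 0.72 (0.69 to 0.75) and Scgb3a1 at 0.95 (0.22 to 1.77). Cyp2f2 was at -0.02 (-0.68 to 0.67) and Cbr2 at -0.05 (-0.28 to 0.18). The Scgb1a1 value also rests on the range, being 0.011 (-0.075 to 0.097) from barcodes with 51 to 100 UMIs.

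**Figure D5:**
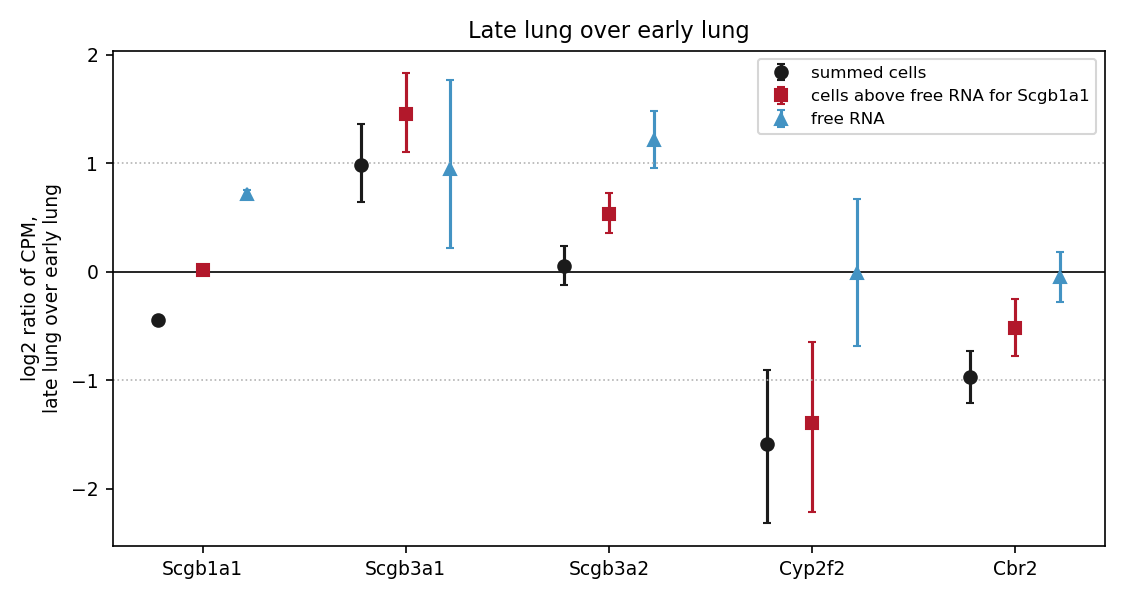
Log2 ratio of CPM, late lung over early lung (vertical), for the 5 genes (horizontal) in summed cells, in cells above free RNA for Scgb1a1 and in free RNA. Bars are exact 95% intervals for counting error, and dotted lines mark 2-fold. Cyp2f2 lies below -1 in both sets of cells and at -0.02 in free RNA.

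Other club cell genes were also uneven between stages. Summed over cells, Lyz2, the lysozyme gene of club cells and macrophages, was higher in the late lung, with 142 UMIs, against 30 in the early lung, but 2 of the late UMIs lay in Scgb1a1-rich cells. Among 3 secreted products with at least 20 early UMIs it was the only one called, where 2.59% of 1659 genes were called higher and 4.88% lower. Reg3g, Retnla, Lcn2 and Scgb1c1 passed 20 UMIs only through the late lung and are given as a description. Retnla had 75 late and 3 early UMIs, and Lcn2 had 49 late and 3 early UMIs. Of the late UMIs, 68 for Retnla and 44 for Lcn2 lay outside the rich cells. With at least 20 UMIs in both lungs together, 8.70% of 4552 genes were called higher and 3.45% lower. Of 20 biotransformation genes counted this way, 4 were lower in the late lung (Cyp2b10, Gsta3, Sult1d1 and Dcxr) and none was higher, with a median of -0.20. Late UMIs of these 4 were 31, 40, 19 and 31, so only Sult1d1 needed the early lung to pass 20 UMIs. Within the rich cells, 1 of 10 biotransformation genes (Cyb5a) was higher in the late lung and none was lower. Among all 242 genes compared there, 4.96% were called higher and 5.37% lower. Most genes of these lists were thus below a call or below the 20 UMIs needed.

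Against the primary sites, all 5 genes were higher in the lungs. Late lung over primary tumor, the log2 ratios were 13.44 for Scgb1a1, 10.46 for Scgb3a2 and 9.05 for Cbr2. Scgb3a1 and Cyp2f2 had 0 UMIs in primary tumor cells, so their intervals have only a lower bound, at log2 ratios of 8.62 and 5.08. Set against a floor of 3 counts over all tumor cells, they were 487-fold and 44.3-fold higher in late lung cells, counting error left out. Of the 330 late Scgb3a1 UMIs, 318 lay in 1 cell. Of 8740 genes, 20.6% were called higher and 17.4% lower. Early lung over early lesion, the ratios were 14.32 for Scgb1a1, 11.51 for Scgb3a2, 4.83 for Cbr2 and 3.45 for Cyp2f2. Scgb3a1 had 0 UMIs in lesion cells, a lower interval bound of 8.71, and was 527-fold higher against the floor of 3 counts. Of 8776 genes, 22.1% were called higher and 11.9% lower.

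The primary sites held few secretory UMIs, and no cell there was above free RNA for Scgb1a1. Scgb1a1 had 13 UMIs in 434 primary tumor cells and 21 in 1318 early lesion cells, with no lesion cell above 1 UMI. Its level was 7.12 CPM in tumor cells and 44.9 CPM in tumor free RNA, and 5.35 CPM in lesion cells and 174 CPM in lesion free RNA. The cells lay below the free RNA of their own library in both. Over all lesion barcodes, 489 of 673 Scgb1a1 UMIs lay on barcodes that held at least 50 Scgb1a1 UMIs in either lung. Of the 50 Scgb1a1 UMIs of the tumor library, 10 lay on barcodes of rich late and 14 on barcodes of rich early lung cells. Whether the free Scgb1a1 RNA came from the primary sites themselves was not tested. Cyp2f2 and Cbr2 were found in more early lesion cells. Cyp2f2 had 80 UMIs in 71 lesion cells (20.4 CPM) and 14.0 CPM in lesion free RNA, and Cbr2 had 196 UMIs in 134 lesion cells (49.9 CPM) and 67.8 CPM in lesion free RNA. Thinned to 500 UMIs, 0.835% of lesion cells had a Cyp2f2 UMI and 2.81% a Cbr2 UMI. In primary tumor cells Cyp2f2 had 0 UMIs and Cbr2 had 2. By the rule for cells above free RNA, 10 lesion cells passed for Cbr2, with 48 UMIs in all, and 1 for Cyp2f2, with 3 UMIs. The other 1317 lesion cells held 77 Cyp2f2 UMIs, 1.40 times what free RNA predicts from its 24 UMIs. Over all lesion cells the log2 ratio to free RNA was 0.52 (-0.14 to 1.26), an interval that includes no difference. In the tumor 2 cells passed for Scgb3a2 with 1 UMI each, where free RNA held none.

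The wider secretoglobin family added little in the lungs. Of 31 other Scgb genes in the tables, 6 had a UMI in any library and 3 had one in lung cells. Scgb1c1 was the main one, with 26 UMIs in late and 4 in early lung cells, of which 22 late and 2 early UMIs lay in Scgb1a1-rich cells. Scgb2b26 and Scgb2b27 had 1 and 2 UMIs in late lung cells and none in early lung cells.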

How the data were processed

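The authors deposited UMI counts for each gene and each of 737280 barcodes, without normalization, from 10x Chromium 3' v2 libraries per the labels' protocols. Reads were assigned on mm10, as the submitters' processing notes state. The aligner and the counter are not given in the sources used here. Positions came from GENCODE M21 and promoter windows from RefSeq (GRCm38.p6).

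UMIs were summed over cells and over free RNA and scaled to CPM. Ratios are log2 ratios after adding 0.5 counts, with exact 95% intervals from both Poisson counts, and shares have exact (Clopper-Pearson) intervals. These cover counting error only, and PCR copies are already collapsed by UMI. With 1 library per group no test was possible. Lung cells were clustered with scanpy 1.11.5 without the 5 genes and mitochondrial genes (counts scaled to 10000, 1000 variable genes, 20 components, 15 neighbours, resolution 1.0). No doublet caller was run, and an alternative left out cells over 10000 UMIs. Python 3.11.15, numpy 2.4.6, scipy 1.17.1 and pandas 2.3.3 were used, and the ratio and the rule for cells above free RNA were tested on simulated data. Members, lists and comparisons were chosen with earlier results of these data known. Named genes were the 10 with the highest lower interval bound in both lungs among genes with at least 50 lung cell UMIs, plus up to 4 members of each list with the most UMIs; other named genes were chosen after their values were seen.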

Additional observations from a re-analysis of the deposited data

Results flagged for a closer look

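Signal was found on lung barcodes that the comparisons of cells leave out. Among barcodes with more than 50 and fewer than 500 UMIs, 41 in the late lung and 54 in the early lung held at least 25% Scgb1a1 (and at least 5 UMIs of it), against 0 in the primary tumor and 6 in the early lesion. Those barcodes carried 39.8% of the Scgb1a1 UMIs of their depth range in the late and 46.3% in the early lung. Among barcodes with 500 UMIs or more that missed the cell rule, 4 in the late lung and 1 in the early lung held at least 25% Scgb1a1. The 4 had 571 to 1228 UMIs and 129 to 224 detected genes, and the early barcode had 569 UMIs and 137 genes, below the minimum of 250 genes.

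In the early lesion library, 404 of 673 Scgb1a1 UMIs (60.03%) lay on the 9 barcodes of the Scgb1a1-rich early lung cells. All 9 carried 6 to 88 Scgb1a1 UMIs there, out of 13 to 123 UMIs in all, and these amounted to 1.84% of the Scgb1a1 UMIs of the same barcodes in the early lung library. The barcodes of the 176 other early lung cells held 0 Scgb1a1 UMIs in the early lesion library. The 15 barcodes of rich late lung cells held 39 Scgb1a1 UMIs there, and 144 in the early lung library. How the overlap came about was not tested.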

How the results depend on the processing

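Of 171 values recomputed, 127 stayed the same within their intervals or within 1.5 times for counts, 41 moved and 3 changed sign after a call. All counts of cells above free RNA stayed within 1.5 times under every limit, free RNA range and cell minimum tried. The cause of the changes was not tested unless the setting itself gives it, as where 1 cell is left out.

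The 3 that changed sign were Scgb3a2 in free RNA of late over early lung (-0.017 from barcodes with 51 to 100 UMIs), Scgb3a1 in late lung cells over free RNA (-2.31 without cells over 10000 UMIs) and Scgb3a1 in rich cells of late over early lung (-3.39 without the highest cell in each library, chosen after seeing the data).

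For late over early lung summed cells, a minimum of 1000 UMIs gave -0.94 for Scgb1a1, 0.53 for Scgb3a1, -0.45 for Scgb3a2, -2.35 for Cyp2f2 and -1.45 for Cbr2. Without cells over 10000 UMIs the values were -0.25, -3.59, -0.16, -0.98 and -0.53 in that order. Without the highest cell in each library they were -0.59, -1.80, -0.23, -1.50 and -0.37. Scgb1a1 was also at -0.48 (mitochondrial maximum 10%), -0.32 (no gene minimum, chosen after seeing the data), -0.49 (totals without the 5 genes) and -0.32 (median of ratios). The median of ratios over 1632 genes moved the scale by -0.12 on the log2 scale.

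In free RNA of late over early lung, Scgb1a1 was at 0.76 with 1 to 20 UMIs and 0.011 with 51 to 100 UMIs, and Cbr2 at -0.40 with 51 to 100 UMIs. For cells over free RNA from 51 to 100 UMIs, the late lung had 1.38 for Scgb1a1, 2.98 for Scgb3a1, 1.62 for Scgb3a2 and -0.95 for Cbr2, and the early lung 1.83 for Scgb1a1, 3.40 for Scgb3a1 and -0.38 for Cbr2. Without cells over 10000 UMIs, Scgb1a1 was at 0.40 late and 1.37 early, late Cyp2f2 at -0.29 and late Cbr2 at -0.15. With 1000 UMIs, early lung over early lesion was 15.05 for Scgb1a1, 4.12 for Cyp2f2 and 5.60 for Cbr2. In rich cells without the highest cell, Scgb1a1 was at 0.085 and Cbr2 at 0.38. Genes called late over early numbered 870 with no filter, against 553. At resolution 0.5 the late rich cells lay in 2 clusters. Asking for 20 UMIs in the other cells alone, or in the early lung alone, in place of both groups together, a choice made after seeing the data, left 0 secreted products higher in rich over other late cells, against 4, and 0 in the early lung, against 2, since fewer genes could be counted. For late over early summed cells it left 1, against 5.

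No paired analysis was possible because each group is 1 library. With medians of 811 late and 772 early UMIs per lung cell, a gene below the free RNA level cannot be told from background. The exact interval for 0 UMIs in the rich cells reaches 254 CPM in the late and 357 CPM in the early lung.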

Other observations

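The enzyme genes of the set also appeared in early lesion cells. The 71 lesion cells with a Cyp2f2 UMI had Epcam, an epithelial adhesion gene, in 97.2%, against 74.0% of the 1247 cells without, and were deeper, with a median of 5179 UMIs, against 2259. Of 134 lesion cells with Cbr2, 15 held 3 or more UMIs and the highest held 8, and 8 cells held both genes. The part of depth in these shares was not tested.

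Another secretoglobin, Scgb2b27, had 314 UMIs in primary tumor cells, 1 in early lesion cells, 2 in late lung cells and 0 in early lung cells. The number of tumor cells that held these UMIs was not counted, and each group is 1 library.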
